A study of Homo sapiens with 6 samples.

Results

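HepG2 is an established human liver tumour line. YAP1, WWTR1, TEAD1, TEAD4, LATS2, AMOTL2, AJUBA, ANKRD1, CYR61 and CTGF were followed in HepG2 cells after FTO was targeted with an siRNA. They are 10 of the 60483 genes listed for each library and were matched by symbol, with CYR61 and CTGF under their current names CCN1 and CCN2. The study transfected HepG2 cells, grown in medium with serum, with a control siRNA or with an siRNA against FTO, the demethylase of N6-methyladenosine in RNA, and each group held 3 libraries. Both groups are the same tumour line, and the labels name no separate cultures, siRNA sequence, dose or time after transfection. The p-values therefore measure the spread between these libraries, which may be technical. All 10 genes had enough counts to be tested.

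YAP1 and the WWTR1 product TAZ are transcriptional coactivators at the end of the Hippo pathway. When the kinases LATS1 and LATS2 are active they phosphorylate both proteins and hold them in the cytoplasm; otherwise YAP and TAZ enter the nucleus and act through the DNA-binding TEAD proteins. In liver the pathway is known for limiting organ size, and high YAP activity is a known feature of liver tumours. The transcripts of CTGF, CYR61 and ANKRD1 are widely used as a readout of YAP and TAZ activity, and LATS2, AMOTL2 and AJUBA code for proteins that feed back on the pathway. RNA levels do not show where the YAP and TAZ proteins are or whether they are phosphorylated.

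TEAD proteins bind the letters GGAATG, and the stretches that carry them just before the annotated starts of these genes are shown because they are the known contact between the coactivators and the readout genes. RefSeq (GRCh38.p14) gave windows for 7 of the 10 members, 10 windows in all, since some have more than 1 start. GGAATG and its reverse complement CATTCC were searched in the 250 bases before each start, and matches are in capitals, written 5′ to 3′ on the strand of the gene. CTGF, on the minus strand, held 3 matches, which began at -169, -104 and -95 from its start. The stretch at chr6:131951374-131951622 is this window without its last base, 249 bases, and reads as follows.
CTGF: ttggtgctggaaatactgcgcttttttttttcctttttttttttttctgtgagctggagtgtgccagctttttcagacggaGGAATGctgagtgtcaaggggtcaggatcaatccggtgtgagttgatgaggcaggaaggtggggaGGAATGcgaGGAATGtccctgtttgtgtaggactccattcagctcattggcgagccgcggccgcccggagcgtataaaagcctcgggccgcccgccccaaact
ANKRD1, on the minus strand, held 2 matches, at -220 (chr10:90921290-90921319) and at -128 (chr10:90921198-90921227). YAP1, on the plus strand, held 1 at -162 (chr11:102110273-102110302). AMOTL2 and AJUBA, both on the minus strand, each held 1 in 1 of their 2 windows, at -69 (chr3:134374499-134374528) and at -59 (chr14:22976884-22976913).
ANKRD1 at -220: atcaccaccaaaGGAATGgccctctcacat
ANKRD1 at -128: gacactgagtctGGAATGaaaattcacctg
YAP1: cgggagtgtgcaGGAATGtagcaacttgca
AMOTL2: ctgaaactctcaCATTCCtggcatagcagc
AJUBA: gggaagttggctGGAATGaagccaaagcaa
Of 35116 windows of this length over all genes, 11.9% held at least 1 match, 0.940% held 2 or more and 0.0826% held 3 or more. The windows of WWTR1 and LATS2 held none of these letters. A loose form of the AP-1 motif, TGANTCA with any letter at N, was searched on both strands. Its first letters can overlap the end of GGAATG. It was found once, in the ANKRD1 window with T at N, and in 6.57% of all windows. The narrower form with C or G at N was not counted separately. A match describes the letters only; binding was not measured.

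The knockdown itself was visible in each library. FTO was at 40.8, 37.96 and 38.8 CPM (counts relative to the library total, scaled between libraries by the trimmed mean of M-values) in controls 1, 2 and 3 and at 11.2, 14.5 and 5.21 CPM in FTO siRNA 1, 2 and 3. The log2 fold change was -1.93 ± 0.32 (SE; edgeR's quasi-likelihood fit, adjusted p = 0.00932), and the groups did not overlap. Total counts lay between 15713279 and 18390953 per library. FTO siRNA 3 stood apart from the other FTO siRNA libraries on the second principal component, which held 25.7% of the variance. The hepatocyte markers ALB and AFP were high in all libraries, at 2392 CPM or more. None of 10 hepatocyte markers was called with all libraries, though all 10 had a log2 fold change below 0. Their median was -0.35, against 0.04 over all tested genes. APOB (6890 to 2616 CPM, edgeR adjusted p = 0.065) and HNF4A (369.5 to 314.8 CPM, adjusted p = 0.306) lay wholly below the controls. So did 17.4% of all tested genes. Without FTO siRNA 3, 6 of the 10 were lower, in a fit that called 14.1% of all genes lower. The summed level of the 10 was 23230 to 33420 CPM in controls and 15890 to 28290 CPM after FTO siRNA.

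Of the 10 genes, WWTR1 rose and the other 9 did not pass an adjusted p of 0.05. Over all 15025 tested genes the same rule called 7.53% higher and 3.83% lower, so 1 of 10 higher and 0 of 10 lower lies near the background. The groups did not overlap for 3 genes, WWTR1, CYR61 and CTGF, all higher with FTO siRNA, where 19.2% of all tested genes lay wholly above and 17.4% wholly below the controls. The log2 fold change was above 0 for 9 members, with a median of 0.34. The members' median was 0.19 without control 1 and 0.20 without FTO siRNA 3. Over all tested genes, with all libraries, the log2 fold change was above 0 for 8038 and below for 6987, with a median of 0.04. The 3 readout genes CTGF, CYR61 and ANKRD1 had fitted fold changes between 0.85 and 1.05 on the log2 scale, and 1 control library lay far below the others for each of them.

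**Figure D1:**
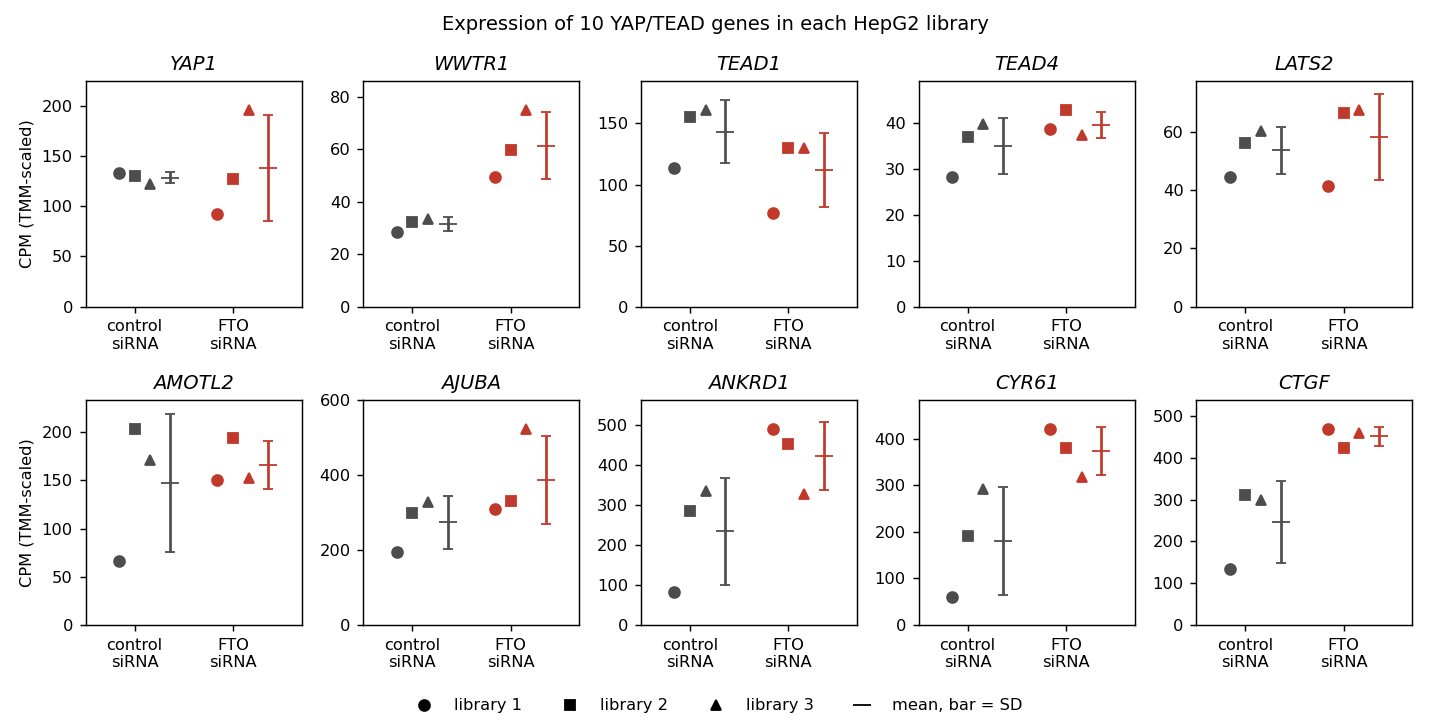
CPM on a linear axis from 0 for each of the 10 genes, with control siRNA libraries in grey and FTO siRNA libraries in red; marker shape gives the library number and the dash with its bar the mean and SD of 3 libraries. WWTR1 separates without overlap from 33.5 CPM in the highest control to 49.5 CPM in the lowest FTO siRNA library, and control 1 is the lowest point for AMOTL2, AJUBA, ANKRD1, CYR61 and CTGF.

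Among the coactivators, WWTR1 (ENSG00000018408.13, chromosome 3) was at 28.6, 32.1 and 33.5 CPM in controls 1, 2 and 3 and at 49.5, 59.7 and 74.8 CPM in FTO siRNA 1, 2 and 3. Every FTO siRNA library was above every control. The mean went from 31.4 ± 2.54 to 61.3 ± 12.7 CPM (SD, n = 3 per group), a rise of 0.97 ± 0.18 on the log2 scale (edgeR, adjusted p = 0.0136). The call was lost when any 1 control was left out, with an adjusted p of 0.0959 without control 1, 0.0714 without control 2 and 0.0554 without control 3 and a log2 fold change of 0.88 to 0.99. In those fits 1.51%, 1.84% and 3.23% of all genes were called higher, and the call was kept when any 1 FTO siRNA library was left out. An antisense gene, WWTR1-AS1, covers 9.45% of the exon bases of WWTR1 and had at most 6 counts in a library, against 451 or more for WWTR1.

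YAP1 (ENSG00000137693.12, chromosome 11), the paralogue, was at 132.5, 130.1 and 122.4 CPM in the controls and at 91.7, 126.5 and 195.1 CPM in FTO siRNA 1, 2 and 3. The controls lay close together, and the FTO siRNA libraries reached from below to above all of them, a 2.13-fold range. The log2 fold change was 0.10 ± 0.25 (adjusted p = 0.828) with all libraries and -0.26 (adjusted p = 0.204) without FTO siRNA 3. Of the 50-base words of YAP1, 0.542% occur in other genes, most often in a processed copy, YAP1P1.

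Compared per length, as CPM per kb of annotated exon, YAP1 was the more abundant coactivator in every library. The ratio of YAP1 to WWTR1 was 6.20, 5.42 and 4.88 in the controls and 2.48, 2.83 and 3.49 in FTO siRNA 1, 2 and 3. It was thus lower in every FTO siRNA library than in every control (mean 5.50 ± 0.66 against 2.93 ± 0.51, SD, n = 3 per group; two-sided exact permutation test, p = 0.1, which is the smallest p that 3 against 3 libraries allow; adjusted p = 0.233). That adjustment covers 7 sums, shares and ratios of coactivators and TEADs, which were chosen after expression values had been seen and were all tested. The sum of both coactivators was 23.4 to 24.5 CPM per kb in the controls and 20.5, 27.2 and 39.9 CPM per kb in FTO siRNA 1, 2 and 3 (exact permutation p = 0.7).

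Of the TEAD factors, TEAD1 (ENSG00000187079.13, chromosome 11) was at 113.5, 155.1 and 160.7 CPM in the controls and at 77.0, 129.6 and 129.6 CPM in FTO siRNA 1, 2 and 3. It was the only member with a negative fold change, -0.35 ± 0.23 on the log2 scale (adjusted p = 0.36), and the groups overlapped. TEAD4 (ENSG00000197905.7, chromosome 12) was at 28.2, 37.0 and 39.9 CPM in the controls and at 38.7, 42.8 and 37.4 CPM in FTO siRNA 1, 2 and 3, a log2 fold change of 0.18 ± 0.17 (adjusted p = 0.538) with overlapping groups. Of its 50-base words, 0.427% occur in other genes, most often in its relative TEAD3.

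The other 2 family members were read from the list of TEADs and VGLL cofactors. TEAD2 rose from 33.1 ± 3.54 to 51.7 ± 4.01 CPM (log2 fold change 0.64 ± 0.15, adjusted p = 0.0281), and TEAD3 was at 57.2, 60.6 and 73.0 CPM in the controls and 78.4, 65.4 and 46.4 CPM in the FTO siRNA libraries (adjusted p = 0.992). Summed per kb, the 4 TEADs came to 54.7, 61.8 and 67.5 CPM per kb in the controls and 67.3, 69.2 and 63.2 CPM per kb after FTO siRNA, so the totals overlapped (exact permutation p = 0.3). The share of TEAD2 in that sum was 22.8%, 17.1% and 15.3% in the controls and 25.3%, 23.5% and 29.8% after FTO siRNA. Every FTO siRNA library lay above every control, by a narrow margin over control 1 (two-sided exact permutation test, p = 0.1, the smallest possible, with n = 3 per group; adjusted p = 0.233 over the 7). The call of TEAD2 was lost in 7 of 15 alternative fits, among them those without any 1 control, without FTO siRNA 1 and without FTO siRNA 2 (adjusted p up to 0.144). The share of TEAD1 was 20.2%, 24.4% and 23.2% in the controls and 11.1%, 18.2% and 19.97% after FTO siRNA. It was lower in every FTO siRNA library than in every control, by a narrow margin between FTO siRNA 3 and control 1 (exact permutation p = 0.1, adjusted p = 0.233). The shares of TEAD3 and TEAD4 overlapped between the groups (exact permutation p = 0.6 and 0.5).

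**Figure D2:**
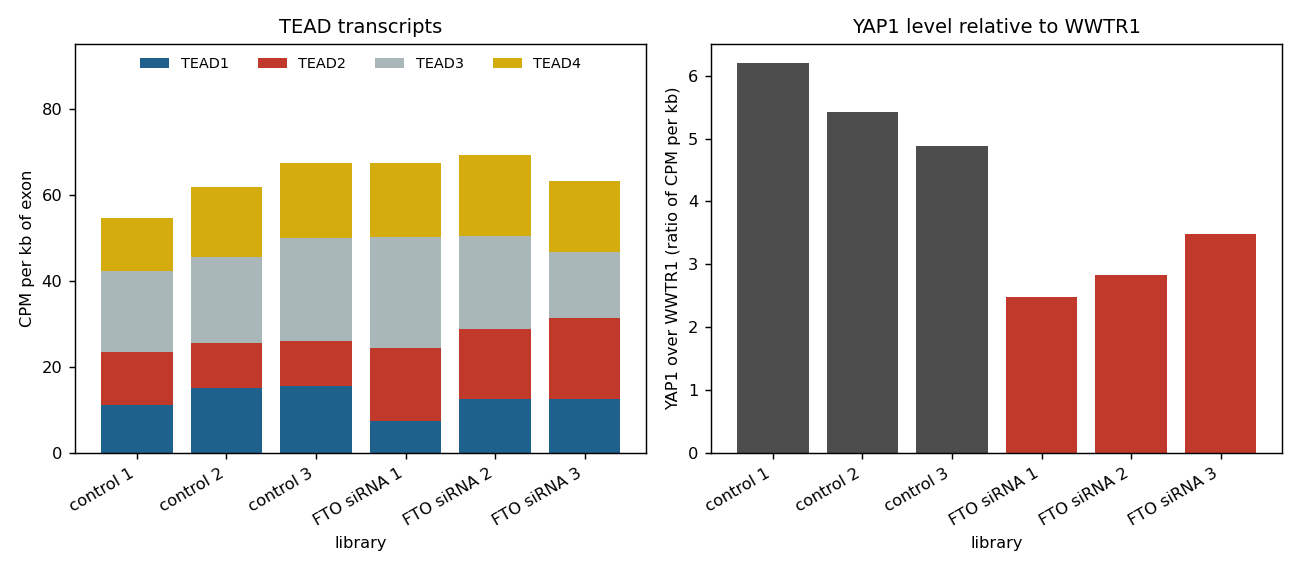
Left, stacked bars of TEAD1 to TEAD4 in CPM per kb of exon in each library; right, the ratio of YAP1 to WWTR1 in CPM per kb, controls grey and FTO siRNA red, both axes from 0. The TEAD total stays between 54.7 and 69.2 CPM per kb while the TEAD2 part is larger in the 3 FTO siRNA libraries, and the YAP1 to WWTR1 ratio is 4.88 or more in controls and 3.49 or less after FTO siRNA.

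The genes that feed back on the pathway showed no call. LATS2 (ENSG00000150457.8, chromosome 13), the kinase that inactivates YAP and TAZ, was at 44.5, 56.1 and 60.1 CPM in the controls and at 41.3, 66.2 and 67.2 CPM in FTO siRNA 1, 2 and 3 (log2 fold change 0.12 ± 0.22, adjusted p = 0.759). FTO siRNA 1 was the lowest library of all, and the groups overlapped. AMOTL2 (ENSG00000114019.13, chromosome 3), an angiomotin family protein that binds YAP at cell junctions, was at 66.8, 203.3 and 170.9 CPM in the controls and at 150.8, 194.4 and 152.3 CPM after FTO siRNA (0.17 ± 0.35, adjusted p = 0.79). Control 1 stood below the other 5 libraries, and without it the log2 fold change was -0.20 (adjusted p = 0.659). AJUBA (ENSG00000129474.14, chromosome 14), a LIM domain protein that binds and restrains LATS kinases, was at 193.5, 299.2 and 327.7 CPM in the controls and at 309.2, 329.8 and 521.9 CPM after FTO siRNA (0.50 ± 0.26, adjusted p = 0.255). Its highest value was in FTO siRNA 3 and its lowest in control 1, and the log2 fold change was 0.28 without control 1 and 0.20 without FTO siRNA 3.

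Per length, the readout genes had the highest mean levels of the members. In controls ANKRD1 was at 118.5 ± 67.5, CTGF at 105.8 ± 42.1 and CYR61 at 73.5 ± 47.3 CPM per kb (SD, n = 3), and their ranges overlapped. AJUBA followed at 45.7 ± 11.8 CPM per kb, a range that overlapped those of ANKRD1, CYR61 and AMOTL2. AMOTL2 at 24.6 ± 11.9 CPM per kb overlapped YAP1 at 20.4 ± 0.83, TEAD4 at 15.4 ± 2.69 and TEAD1 at 13.9 ± 2.51 CPM per kb. LATS2 at 9.61 ± 1.45 and WWTR1 at 3.73 ± 0.30 CPM per kb were lowest, and WWTR1 lay below every other member in every control. After FTO siRNA the order of the means was the same, from ANKRD1 at 214.2 ± 43.0 and CTGF at 193.0 ± 10.0 CPM per kb to LATS2 at 10.4 ± 2.64 and WWTR1 at 7.29 ± 1.51 CPM per kb. Lengths are those of all annotated exons of a gene, so levels of genes with rarely used exons are understated.

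CTGF (ENSG00000118523.5, chromosome 6), a secreted matricellular protein that promotes matrix production, was at 134.0, 310.2 and 298.2 CPM in controls 1, 2 and 3 and at 469.4, 424.8 and 460.0 CPM in FTO siRNA 1, 2 and 3. The FTO siRNA libraries lay together within 1.11-fold and above every control, of which control 1 was lowest. The mean went from 247.5 ± 98.5 to 451.4 ± 23.5 CPM (log2 fold change 0.87 ± 0.29, edgeR adjusted p = 0.0914). DESeq2 called this difference (adjusted p = 0.036), which made 2 of 10 members higher where it called 9.85% of all genes. An antisense gene over 8.34% of the exon bases of CTGF had no count in any library.

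CYR61 (ENSG00000142871.14, chromosome 1), its close relative of the CCN family, was at 59.4, 191.2 and 290.9 CPM in the controls and at 420.5, 380.4 and 318.5 CPM in FTO siRNA 1, 2 and 3. All FTO siRNA libraries were above all controls, and the controls spanned 4.90-fold. The log2 fold change was 1.05 ± 0.46 (adjusted p = 0.18). ANKRD1 (ENSG00000148677.6, chromosome 10), an ankyrin repeat protein of the nucleus, was at 82.8, 286.4 and 334.5 CPM in the controls and at 490.6, 453.2 and 328.1 CPM in FTO siRNA 1, 2 and 3. FTO siRNA 3 lay just below control 3, so the groups overlapped, and the log2 fold change was 0.85 ± 0.44 (adjusted p = 0.243). Without control 1 the log2 fold changes came to 0.54 for CTGF, 0.60 for CYR61 and 0.42 for ANKRD1, with adjusted p-values of 0.186, 0.242 and 0.386.

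**Figure D3:**
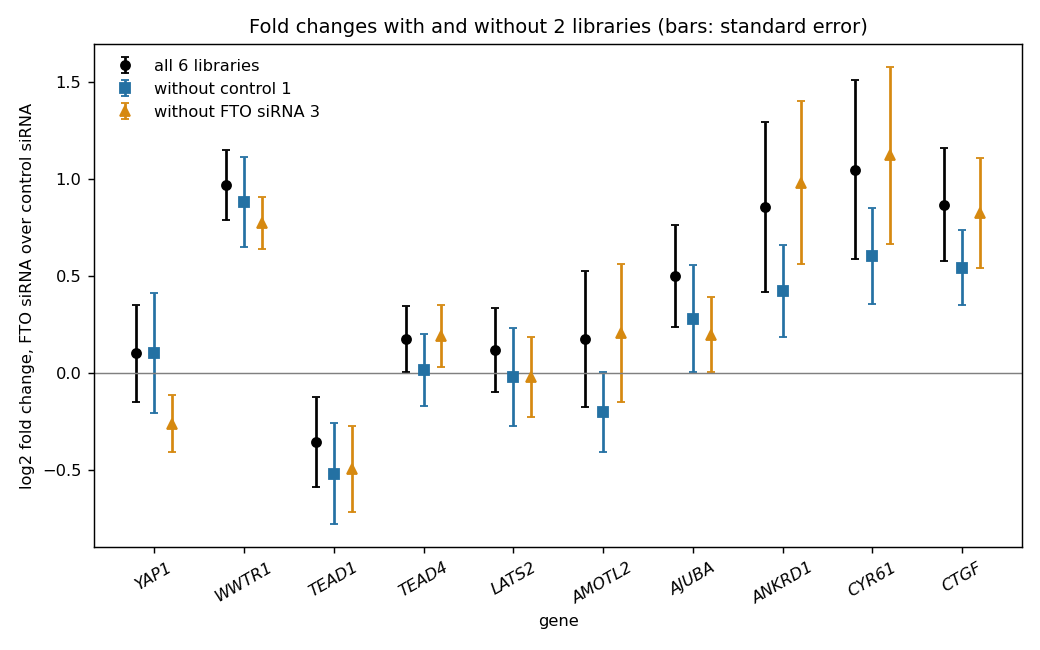
Log2 fold change of FTO siRNA over control siRNA with its standard error for the 10 genes, from fits with all 6 libraries (black), without control 1 (blue) and without FTO siRNA 3 (orange). WWTR1 stays between 0.77 and 0.97 in these 3 fits, the readout genes ANKRD1, CYR61 and CTGF drop to between 0.42 and 0.60 without control 1, and YAP1 moves from 0.10 to -0.26 without FTO siRNA 3.

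The spread among the controls was large for the readout genes and small for YAP1. Among 6364 tested genes with a mean of at least 30 CPM, the highest control was 1.121-fold the lowest at the median gene. It was 4.90-fold for CYR61, a range reached by 2 of these genes with CYR61 among them, 4.04-fold for ANKRD1 (5 genes), 3.04-fold for AMOTL2 (13 genes) and 2.32-fold for CTGF (35 genes). YAP1 had a range of 1.08-fold and WWTR1 of 1.17-fold. Against the mean of controls 2 and 3, control 1 was lower by these amounts on the log2 scale: CYR61 fell by 2.02, ANKRD1 by 1.91, AMOTL2 by 1.49, CTGF by 1.18 and AJUBA by 0.70, while the value was 0.07 for YAP1. Control 1 was the lowest control for 9 of the 10 members, all but YAP1, and for 32.1% of all tested genes. In the FTO siRNA group these 4 genes had ranges of 1.32-fold for CYR61, 1.5-fold for ANKRD1, 1.29-fold for AMOTL2 and 1.11-fold for CTGF, against 1.45-fold at the median gene.

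**Figure D4:**
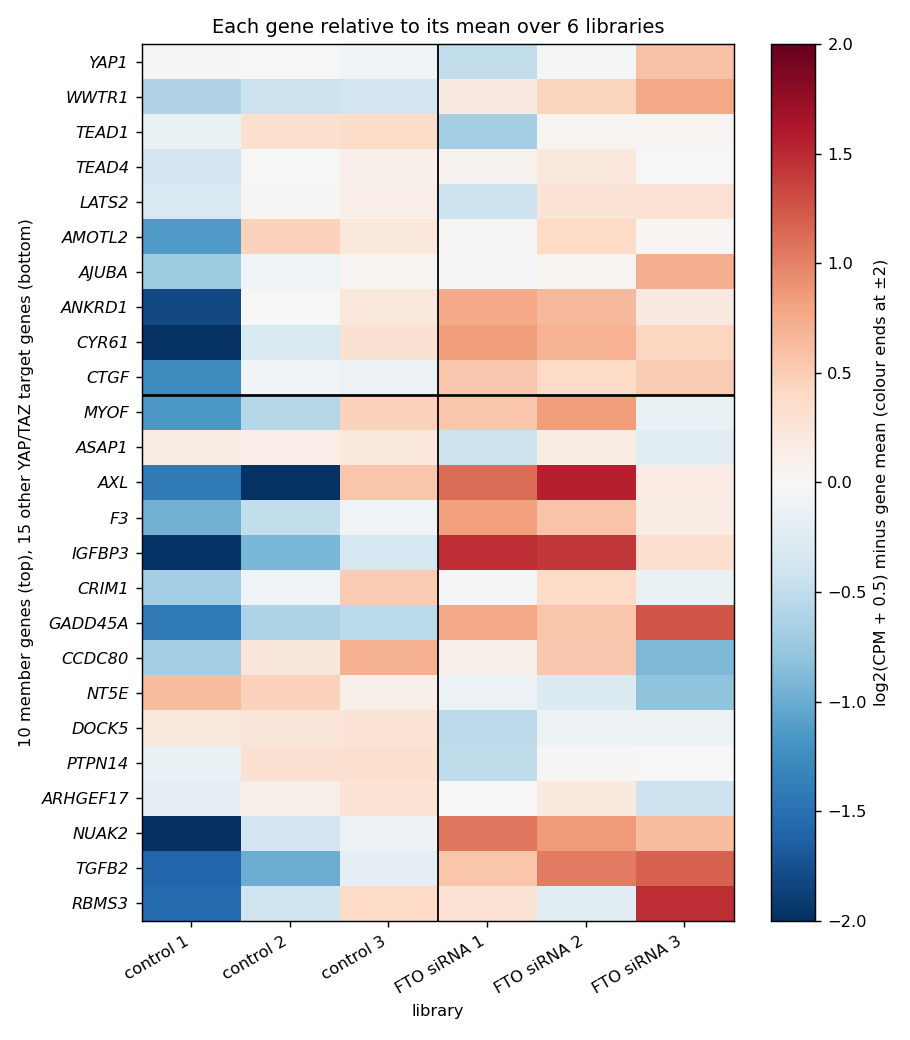
Colour gives log2(CPM + 0.5) minus the mean of each gene over 6 libraries, for the 10 member genes (top) and 15 tested genes of a wider YAP and TAZ target list (bottom); columns are libraries, with controls left of the vertical line, and colours end at 2 in each direction. Control 1 is the bluest column for CYR61 (-1.98), ANKRD1 (-1.80) and CTGF (-1.27), and YAP1 is near 0 in all 3 controls.

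Further target genes of YAP and TAZ were read from a list of 17 that are often used as a joint signature and are not among the members. With all libraries, 7.53% of all tested genes were called higher and 3.83% lower, with a median log2 fold change of 0.04. Among the 15 tested genes of this list the log2 fold change was above 0 for 9 and below 0 for 6, with a median of 0.74. At the threshold 0 fell, 11 did not pass and 4 rose. They were GADD45A, a stress-induced growth arrest gene (37.8 ± 11.6 to 123.5 ± 31.9 CPM, adjusted p = 0.00838), TGFB2, a TGF-beta ligand (42.7 ± 21.2 to 144.3 ± 31.0 CPM, adjusted p = 0.0153), IGFBP3, a carrier of insulin-like growth factors (70.5 ± 35.7 to 301.8 ± 114 CPM, adjusted p = 0.0186), and F3, tissue factor (25.8 ± 8.05 to 52.1 ± 11.8 CPM, adjusted p = 0.0399). Control 1 was the lowest control for 12 of the 15. Without control 1 the list held 1 call, higher, and a median of 0.41, in a fit that called 1.51% of all genes higher. Without FTO siRNA 3 it held 6 higher and 2 lower, in a fit that called 15.9% of all genes higher and 14.1% lower. GADD45A stayed called with each library left out in turn. The calls of TGFB2, IGFBP3 and F3 were each lost without control 1 or control 2, and those of IGFBP3 and F3 also without FTO siRNA 1 or 2 (adjusted p up to 0.156). In the other CCN family genes, CCN3 (0.859 to 1.23 CPM) and CCN6 (5.08 to 8.29 CPM) did not pass, and CCN4 and CCN5 had too few counts to test.

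AP-1 factors, which share many regulatory elements with TEADs, rose at 6 of 7 subunits, where 7.53% of all tested genes were called higher. The median log2 fold change of the 7 was 1.92. Examples are FOS (1.90 ± 0.62 to 8.06 ± 1.04 CPM, adjusted p = 0.00471), JUNB (32.5 ± 2.57 to 159 ± 91.9 CPM, adjusted p = 0.00801), FOSB (2.31 ± 0.46 to 20.4 ± 15.01 CPM, adjusted p = 0.00874) and FOSL2 (21.9 ± 6.63 to 63.5 ± 16.6 CPM, adjusted p = 0.0115). These genes are known to respond to many stimuli. The AP-1 list held 1 call without control 1, with a median of 1.57, in a fit that called 1.51% of all genes higher. Without FTO siRNA 3 it held 6 calls, in a fit that called 15.9% of all genes higher.

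Upstream of YAP and TAZ, 1 of 14 tested Hippo kinases and activators rose and 0 fell, with a median of -0.19, and the share called higher was near the 7.53% of all tested genes. The gene was FRMD6, a FERM domain activator of the kinases, which went from 16.1 ± 2.93 to 31.4 ± 2.74 CPM (log2 fold change 0.96 ± 0.18, adjusted p = 0.0138; 0.094 without control 1 and 0.0815 without control 2). Of 10 adaptors and junction proteins 1 fell, where 3.83% of all tested genes did, and 0 rose, with a median of -0.27. AMOT, the angiomotin that gives its family the name and binds YAP, was at 21.7, 22.1 and 22.6 CPM in the controls and at 4.28, 7.91 and 6.39 CPM in FTO siRNA 1, 2 and 3. The groups did not overlap. AMOT fell, with a log2 fold change of -1.84 ± 0.23 (adjusted p = 0.00381), and remained called in each of 15 alternative fits, with an adjusted p of at most 0.028. Without FTO siRNA 3 the kinases and activators held 2 higher and 3 lower, and the adaptors and junction proteins 0 higher and 4 lower. That fit called 15.9% of all genes higher and 14.1% lower. Without control 1 the kinases and activators held no call, and the adaptors and junction proteins 1 lower. There 1.51% of all genes were called higher and 0.602% lower. Of the VGLL cofactors that compete with YAP for TEADs, VGLL4 (adjusted p = 0.94) and VGLL3 (adjusted p = 0.0981) did not pass, and VGLL1 and VGLL2 were too low to test.

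Some markers of fibroblasts and immune cells differed between the groups, and others did not. In bulk RNA, more cells of a type and more RNA per cell cannot be told apart. Of 10 fibroblast markers 6 could be tested and 3 rose, COL1A1, COL1A2 and TAGLN, where 7.53% of all tested genes were called higher. COL3A1, LUM and PDGFRB did not pass. The summed level of the 10 was 99.8 to 189.9 CPM in controls and 248.5 to 600.1 CPM after FTO siRNA. Without control 1, in the fit that called 1.51% of all genes higher, none of the 6 was called and their median log2 fold change was 1.18, against 1.05 with all libraries. The fibroblast markers DCN, THY1, POSTN and FAP had no count in any control and at most 0.372 CPM in an FTO siRNA library. Of 12 immune cell markers 8 could be tested and 6 rose, among them PTPRC with at most 1.24 CPM, against 7.53% of all tested genes. Without control 1, 5 of the 8 were called, against 1.51% of all genes called higher. The summed level of all 12 was 51.6 to 101.7 CPM in controls and 79.6 to 112.9 CPM after FTO siRNA, most of it from LYZ (46.7 to 97.3 CPM in controls, adjusted p = 0.967). The other 11 immune markers together were at 4.25, 4.45 and 4.89 CPM in the controls and at 29.4, 19.8 and 19.6 CPM after FTO siRNA, without overlap. Of 6 endothelial markers 1, PECAM1, could be tested and 0 were called. The summed level, most of it from PECAM1, was 20.4 to 25.6 CPM in controls and 15.2 to 24.1 CPM after FTO siRNA. VWF, KDR and TEK had no count in any control and at most 0.247 CPM in an FTO siRNA library. CDH5 was at 2.35 CPM in FTO siRNA 3 and at most 0.186 CPM in every other library. Control 1 was the lowest control for 2 of the 6 tested fibroblast markers, LUM and TAGLN. The part of other cells in the levels of CTGF, CYR61, ANKRD1 and WWTR1 was not tested.

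The genes whose log2 CPM over the 6 libraries was most like that of CTGF, among 12449 genes whose log2 CPM averaged 1 or more, were CITED2 (Pearson r = 0.999), FERMT2 (0.994) and TADA2A (0.988). For YAP1 they were NR1D2 (0.998), BTBD3 (0.997) and ENPP1 (0.997). These are descriptions over 6 libraries that share their group and depth, and none of the 6 genes was called (adjusted p from 0.152 to 0.863).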

How the data were processed

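RNA from HepG2 cells was sequenced in 6 libraries, 3 per group, grouped by the transfection label. The authors deposited 1 table of raw counts per Ensembl gene for each library. Per the submitters' processing notes, the tools were TopHat2 2.0.11, TopHat and HTSeq, and the builds hg19 and GRCh37; their order, strand use and treatment of multi-mapping reads are not stated there. Symbols came from a table of gene names, which with GENCODE 29 matched 56753 of 60483 identifiers, and exon lengths from GENCODE 29, on another build, so that no coordinates of genes are given. Promoter sequences are RefSeq's (GRCh38.p14); TEAD1, TEAD4 and CYR61 are not analysed there.

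Counts were filtered with filterByExpr, scaled by TMM and tested with edgeR 4.0.16 in R 4.3.3 (glmQLFit with legacy=FALSE, glmQLFTest), two-sided, on group alone over 15025 genes, with Benjamini-Hochberg adjustment over all of them, a threshold of 0.05 and no fold minimum. Standard errors are the log2 fold change over the square root of F. Every pair of libraries differed by more than counting error (chi-square per degree of freedom at least 8.81). A floor of 3 counts was 0.153 to 0.19 CPM, for counting error only. The steps were tested on simulated data. Alternatives were other scalings and filters, DESeq2 1.42.0, limma-voom (limma 3.58.1), edgeR's legacy method, the replicate number as a block, and each library left out; lists without control 1 or FTO siRNA 3 were added after seeing the data. Members and lists were chosen with earlier results of these data known. Named genes are the members, FTO, up to 4 called genes with the smallest p-values of each list, or the 2 most abundant of a list without calls, and the 3 genes most like CTGF and YAP1. Other genes, such as TEAD3, VGLL3 and LYZ, were named after their values were seen.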

Additional observations from a re-analysis of the deposited data

How the results depend on the processing

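The 10 genes had no call reversed in any of 15 alternative fits. WWTR1 was the 1 member called higher under each other scaling and filter, limma-voom, the legacy method and the replicate block; DESeq2 called 2, and with 1 library left out 0 to 1 were called. No fit called a member lower. Genes called higher over the whole table came to 736 with the replicate block, and genes called lower to 305 with it and 1029 with DESeq2, against 1132 and 575. With 1 library left out they ranged from 236 to 2430 and from 94 to 2152, the highest without FTO siRNA 3. Signs of members that were not called turned with single libraries: with 1 left out, log2 fold changes ran from -0.26 to 0.31 for YAP1, from -0.019 to 0.30 for LATS2 and from -0.20 to 0.47 for AMOTL2. The cause was not tested. Same-numbered libraries did not deviate together (correlations of -0.14, -0.06 and -0.25), and 0 of 6 correlated best with their own number, so the replicate block is a check only; in it WWTR1 had an adjusted p of 0.0243. Depth did not limit the members, which had 445 counts or more in every library.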
